A study of Arabidopsis thaliana with 4 samples.

Results

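WRKY transcription factors of Arabidopsis thaliana were compared between the mutant ron3 and its control Ler, in tissue of the shoot apex. The genes were the 47 listed WRKY loci, found by locus identifier among the 25665 loci with a gene probe on the array. Each of the 47 had 1 probe, and 45 were measured well enough to be tested among 19246 genes. WRKY42 (AT4G04450) and WRKY61 (AT1G18860) were well above background on 0 arrays in either genotype and were not tested. By the family's classification, taken from general knowledge, 9 of the genes belong to group I, 30 to group II and 8 to group III.

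Each of 4 two-colour arrays, called a to d after the replicate letters, compared labelled RNA of ron3 directly with that of Ler. On arrays a and c the ron3 RNA carried Cy5, and on arrays b and d it carried Cy3. The labels give both genotypes as shoot apex tissue of plants grown in vitro under LD and taken at stage 1.02. They describe the set as dye swaps of biological replicates without saying which arrays share an RNA extract. If the arrays of a swap share extracts, the 4 arrays hold fewer than 4 independent extracts of each genotype. Ler is the laboratory strain Landsberg erecta, which itself carries a defective allele of the receptor kinase gene ERECTA. The labels name neither the ron3 allele nor the number of plants pooled per extract. The p-values below thus measure the spread between these arrays that is left after a dye effect per probe.

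WRKY proteins are plant transcription factors named after a conserved peptide in their DNA-binding domain, with which they bind W-box elements in promoters. Group I members carry a pair of WRKY domains, while group II and group III members carry 1 domain and differ in the type of zinc finger. Many members are induced by pathogens, salicylic acid or wounding and act for or against defence genes, while others take part in seed, trichome or root development, phosphate nutrition and senescence. MAP kinases phosphorylate several group I proteins, and small VQ motif proteins bind WRKY domains.

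RON3, known from other work as SICKLE (AT4G24500), was the check of the genotype. Its log2 ratio of ron3 over Ler was −2.31, −2.27, −2.21 and −2.41 on arrays a to d. The fitted ratio was −2.30 (SD 0.08, n = 4 arrays), 4.92-fold lower in ron3 (limma adjusted p = 0.000148). The share of gene probes well above background was 55.5% to 59.5% for ron3 and 54.2% to 57.0% for Ler. Pairwise correlations between the 4 arrays' ratios, across genes, which are not independent replicates, were 0.888 to 0.951. The number of arrays limits the precision. Transcripts of most genes differed in this comparison: at an adjusted p of 0.05, 37.0% of all genes tested rose in ron3 and 32.8% fell, 69.8% in all, with a median absolute log2 ratio of 0.41 among those called.

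Against that background the listed WRKY genes moved mostly upward. They were listed with earlier results of these data known, so their shares describe the list and are no test. In ron3, 33 of the 45 tested members rose, 4 fell and 8 did not pass the test. That is 73.3% against 37.0% of all genes for rises, and 8.89% against 32.8% for falls. The rises were large in 18 members, which were at least 2-fold higher, against 6.02% of all genes tested, and in 14 members at least 4-fold, against 1.85%. Falls of 2-fold numbered 0 of the 45, and they were rare over all genes too, at 393 of 19246. The median log2 ratio of the members was 0.82, with quartiles of 0.16 and 2.37, while the median of all genes tested was 0.02.

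These counts hold members whose probes were bright mainly in ron3. The filter admitted a probe through either genotype, and WRKY31, WRKY51, WRKY72 and WRKY75 passed it through ron3 alone. In all, 34 members were well above background on all 4 arrays in both genotypes, 10 on all 4 ron3 arrays but fewer than 4 Ler arrays, and 0 the other way round. These counts were not taken over all genes. The share of all gene probes well above background was also higher for ron3 than for Ler on each array. Among the 34 members measured in every channel, 25 rose and 4 fell in a fit restricted to such probes. In that fit 36.6% of all genes rose and 35.6% fell. In bulk tissue, fewer cells of a type and less RNA per cell cannot be told apart. Cross-hybridisation between probes of related WRKY genes was not tested.

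**Figure D1:**
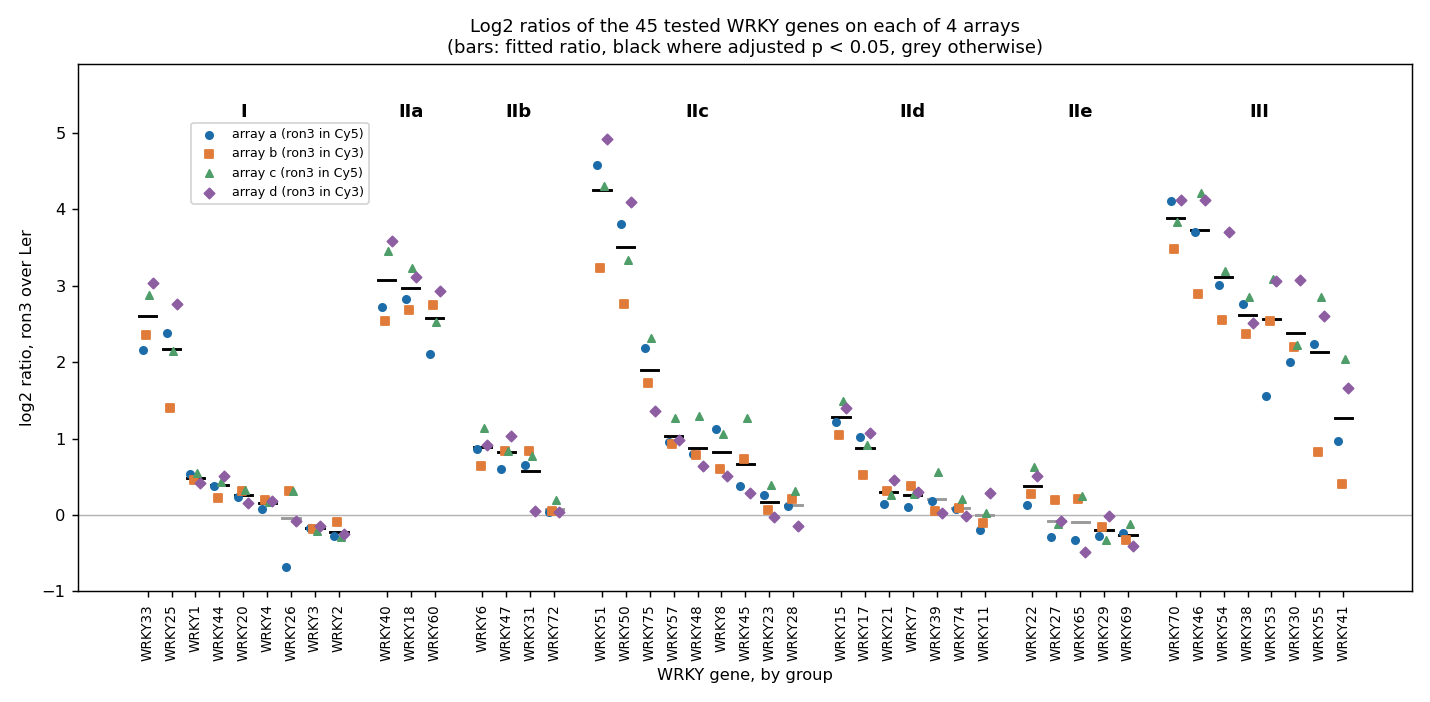
Log2 ratios of ron3 over Ler for the 45 tested WRKY genes, arranged by group (horizontal axis) with 1 point per array (a to d) and a bar for the fitted ratio, black where the limma adjusted p is under 0.05 and grey otherwise. All 8 listed genes of group III and all 3 of subgroup IIa lie above 0 on every array, whereas the genes of subgroup IIe lie between −0.49 and 0.63.

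All 8 listed members of group III rose, by 1.27 to 3.88 on the log2 scale, and 7 of the 8 rose at least 4-fold. WRKY loci outside the 47 were not assigned to groups, so the group counts hold for the listed members only. WRKY70 (AT3G56400), a regulator set between salicylic acid and jasmonic acid signalling, had log2 ratios of 4.10, 3.48, 3.83 and 4.12 on arrays a to d. Its processed signals were 41073, 27427, 37469 and 58680 for ron3 and 2314, 2522, 2543 and 3300 for Ler, so every ron3 value lay far above every Ler value. The fitted difference was 14.8-fold (log2 3.88, SD 0.30, n = 4, adjusted p = 0.000189). WRKY46 (AT2G46400), which acts with WRKY53 and WRKY70 in basal resistance, had ratios of 3.70, 2.89, 4.22 and 4.11. Its signals ran from 3509 to 19855 in ron3 and from 363 to 1002 in Ler without overlap, and it was 13.3-fold higher (SD of log2 0.60, adjusted p = 0.000431). In both genes array b gave the smallest ratio.

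WRKY54 (AT2G40750), the close relative of WRKY70 that acts with it as a brake on leaf senescence, gave ratios of 3.004, 2.55, 3.20 and 3.70. The ron3 signals, 2799 to 6707, did not overlap those of Ler, 313 to 390, and the gene was 8.65-fold higher in ron3 (SD of log2 0.48, adjusted p = 0.000483). WRKY38 (AT5G22570), a negative regulator of basal defence, gave 2.76, 2.36, 2.85 and 2.51, the smallest spread in the group (SD 0.22). It was 6.15-fold higher (adjusted p = 0.000140), with signals of 1028 to 1433 against 91.1 to 108. The Ler values of WRKY38 stayed nearly level over the arrays, as did those of WRKY54.

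The 4 remaining listed group III genes rose as well. WRKY53 (AT4G23810), an activator of leaf senescence, was 5.89-fold higher (log2 2.56, SD 0.71, adjusted p = 0.00157), with the lowest ratio, 1.56, on array a. WRKY30 (AT5G24110), known as responsive to reactive oxygen, was 5.18-fold higher (log2 2.37, SD 0.47, adjusted p = 0.000505). WRKY55 (AT2G40740) lies next to WRKY54 on the chromosome in the reference annotation, the only members that are adjacent protein-coding loci. It was 4.37-fold higher (log2 2.13, SD 0.90, adjusted p = 0.00426), and its ratio of 0.83 on array b stood below the 2.23 to 2.85 of the other arrays. WRKY41 (AT4G11070), induced by flagellin, was 2.41-fold higher (log2 1.27, SD 0.73, adjusted p = 0.0144), from 0.41 on array b to 2.04 on array c, and without replicate c its adjusted p was 0.0554. The Ler signal of WRKY30 and WRKY41 was well above background on 3 arrays and that of WRKY55 on 2, so a dim Ler value entered each of these ratios.

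Subgroup IIa, the small set WRKY18, WRKY40 and WRKY60 whose proteins bind each other and restrain defence and abscisic acid responses, rose by 2.58 to 3.07 on the log2 scale, within the range of group III. WRKY40 (AT1G80840) gave log2 ratios of 2.72, 2.53, 3.45 and 3.59 on arrays a to d. Its signals were 1655, 1014, 2346 and 2445 in ron3 and 162, 68.1, 93.2 and 88.7 in Ler, an 8.41-fold difference (SD of log2 0.52, adjusted p = 0.000590). WRKY18 (AT4G31800) gave 2.82, 2.68, 3.23 and 3.12, with signals of 5752 to 9658 against 792 to 1172, a 7.80-fold difference (SD 0.26, adjusted p = 0.000206). WRKY60 (AT2G25000) gave 2.10, 2.75, 2.53 and 2.93 and was 5.96-fold higher (SD 0.36, adjusted p = 0.000191). For all 3 genes the ron3 and Ler signals did not overlap, which was true of 46.1% of all genes tested and of 28 of the 45 members.

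**Figure D2:**
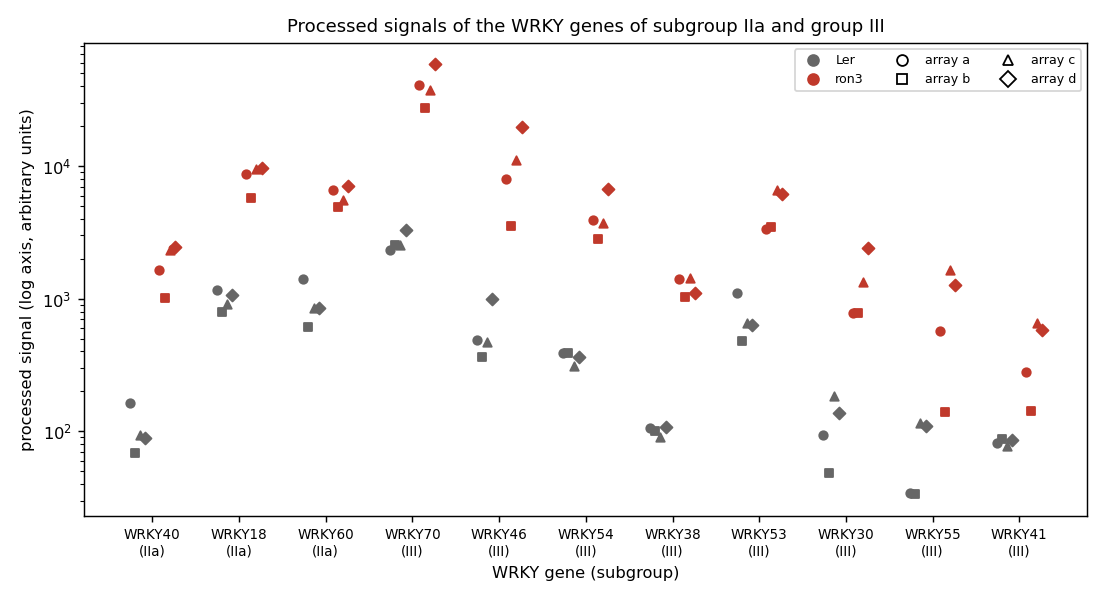
Processed signals (vertical log axis, arbitrary units) of the 3 genes of subgroup IIa and the 8 listed genes of group III in Ler (grey) and ron3 (red), with 1 symbol per array. The lowest ron3 value lies above the highest Ler value in each of the 11 genes, from WRKY70 (27427 against 3300) to WRKY41 (142 against 87.9).

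In group I, 6 of the 9 members rose, 2 fell and WRKY26 did not pass the test, with a median log2 ratio of 0.26. The group was split between a pair of strongly raised genes and a set with small changes. WRKY33 (AT2G38470), a substrate of MPK3 and MPK6 that activates camalexin genes, had ratios of 2.16, 2.35, 2.87 and 3.03. Its signals were 5055, 3650, 8685 and 7674 in ron3 and 1085, 627, 1109 and 865 in Ler, a 6.07-fold difference (SD of log2 0.42, adjusted p = 0.000497). WRKY25 (AT2G30250), a relative of WRKY33 linked to heat and salt tolerance, had ratios of 2.38, 1.40, 2.14 and 2.75 and was 4.49-fold higher (SD 0.57, adjusted p = 0.00160). Both genes had signals that did not overlap between genotypes.

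WRKY26 (AT5G07100), which is close to WRKY25 and WRKY33 and acts with them in heat tolerance, had ratios of −0.68, 0.31, 0.31 and −0.08. Its fitted ratio of −0.03 had a 95% interval of −0.52 to 0.45 (adjusted p = 0.880), so neither a small rise nor a small fall could be told from the spread, and it turned to 0.21 without replicate a. The ratio of WRKY33 exceeded that of WRKY26 on each of the 4 arrays, by 2.04 to 3.11. The ratio of WRKY25 also exceeded that of WRKY26 on each array, by 1.09 to 3.05. The other rises of group I were 1.11-fold to 1.40-fold. WRKY1 (AT2G04880) was 1.40-fold higher (log2 0.49, SD 0.07, adjusted p = 0.000651), with 0.54, 0.45, 0.54 and 0.41 on the arrays. WRKY44 (AT2G37260), known as TTG2 for its role in trichomes and seed coats, was 1.31-fold higher (log2 0.39, SD 0.12, adjusted p = 0.00511), with 0.38, 0.22, 0.44 and 0.51. WRKY20 (AT4G26640) rose by 0.26 (adjusted p = 0.00783) and WRKY4 (AT1G13960), which like WRKY3 contributes to resistance against necrotrophic fungi, by 0.16 (adjusted p = 0.0202), calls lost without replicate c at adjusted p of 0.0580 and 0.136. The call of WRKY4 was also lost without replicate a (0.0781) and with the authors' value table (0.116).

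The falls in group I were small. WRKY2 (AT5G56270), which acts in early embryo patterning and in pollen, had a log2 ratio of −0.23 (SD 0.09, adjusted p = 0.00930), from −0.29 to −0.10 over the arrays. WRKY3 (AT2G03340) had a ratio of −0.18 (SD 0.03, adjusted p = 0.0128), from −0.21 to −0.14. WRKY3 and WRKY4 are close relatives, and their ratios lay on opposite sides of 0, 0.25 to 0.38 apart on the arrays. Both falls missed the threshold without replicate a (adjusted p = 0.0595 and 0.0710) and without replicate c (0.0626 and 0.0954), and that of WRKY3 also with median centring in place of loess (0.256).

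In subgroup IIb, 3 of the 4 tested members rose, and 2 of the 6 listed, WRKY42 and WRKY61, could not be measured. WRKY6 (AT1G62300), a regulator of senescence and of phosphate transport, had ratios of 0.86, 0.64, 1.13 and 0.91 and was 1.85-fold higher (SD 0.20, adjusted p = 0.000822). WRKY47 (AT4G01720) had 0.60, 0.84, 0.84 and 1.03 and was 1.77-fold higher (SD 0.17, adjusted p = 0.000673). WRKY31 (AT4G22070) gave 0.65, 0.83, 0.78 and 0.05, with the lowest ratio on array d, and its Ler signal was well above background on 0 arrays. Its rise was therefore a bound, at least 1.26-fold (adjusted p = 0.0188, lost without replicate a at 0.0643 and without replicate c at 0.0813). For such a bound the mean ron3 level was set against the lowest Ler signal that was well above background on each array, or the probe's own where higher. WRKY72 (AT5G15130), a contributor to basal defence, had a ratio of 0.08 (95% interval −0.04 to 0.20, adjusted p = 0.160).

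Subgroup IIc held the members with the largest rise of the 45 and also small ones: 8 of its 9 genes rose, from 0.17 to 4.26 on the log2 scale. WRKY51 (AT5G64810) had ratios of 4.58, 3.23, 4.30 and 4.91. Its signals were 4408, 1304, 2995 and 5938 in ron3 and 47.5, 22.7, 18.03 and 44.3 in Ler, where it was well above background on 1 array. The fitted difference was 19.1-fold (SD of log2 0.73, adjusted p = 0.000535). WRKY50 (AT5G26170), which with WRKY51 mediates repression of jasmonic acid responses by salicylic acid, had ratios of 3.81, 2.76, 3.34 and 4.10 and was 11.3-fold higher (SD 0.58, adjusted p = 0.000549). Its Ler signal was well above background on 2 arrays.

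WRKY75 (AT5G13080), a regulator of phosphate starvation responses and root hairs that also promotes senescence, had ratios of 2.18, 1.73, 2.31 and 1.36 and was 3.72-fold higher (SD 0.43, adjusted p = 0.000232), with a Ler signal well above background on 1 array. Its close relative WRKY45 (AT3G01970), which acts on phosphate uptake, rose by 0.67 (SD 0.44, adjusted p = 0.0231), a call lost without replicate b at 0.0588 and with the authors' value table at 0.0563. WRKY57 (AT1G69310), known for drought tolerance, had 0.95, 0.93, 1.27 and 0.98 and was 2.05-fold higher (SD 0.16, adjusted p = 0.000479).

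The other rises of subgroup IIc were fitted at 0.17 to 0.88. WRKY48 (AT5G49520), a negative regulator of basal defence, rose by 0.88 (adjusted p = 0.00154), and WRKY8 (AT5G46350), linked to salt tolerance and resistance to Botrytis, by 0.82 (adjusted p = 0.000327). Their Ler signals were well above background on 2 and 3 arrays, and with the log ratio of the scanner software the rises were 1.92 and 1.52. WRKY23 (AT2G47260), an auxin-responsive gene of root and embryo development, rose by 0.17 (adjusted p = 0.0228). It was the only one of the 33 risen members without the same sign on all arrays, at −0.03 on array d. Its call was lost without replicate a (0.0633), b (0.0613) or c (0.138) and with the authors' value table (0.274). The call was also lost without a dye effect in the fit. WRKY28 (AT4G18170), an activator of salicylic acid synthesis, had a ratio of 0.12 (95% interval −0.08 to 0.33, adjusted p = 0.205), and without replicate d it was 0.21 (adjusted p = 0.0366).

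Subgroup IId, whose proteins bind calmodulin, was split: 4 of 7 members rose and 3 did not pass the test. WRKY15 (AT2G23320), a regulator of cell expansion and oxidative stress responses, had 1.21, 1.04, 1.49 and 1.40 and was 2.44-fold higher (SD 0.20, adjusted p = 0.000501). WRKY17 (AT2G24570) had 1.02, 0.53, 0.91 and 1.07 and was 1.84-fold higher (SD 0.25, adjusted p = 0.00180). Its close relative WRKY11 (AT4G31550), which acts with it as a negative regulator of basal resistance, had −0.20, −0.11, 0.03 and 0.28, with a fitted ratio of 0.00 (95% interval −0.22 to 0.22, adjusted p = 0.991). The ratio of WRKY17 was 0.64 to 1.21 above that of WRKY11 on every array. WRKY21 (AT2G30590) had 0.15, 0.31, 0.26 and 0.46 and rose by 0.30 (adjusted p = 0.00553). WRKY7 (AT4G24240) rose by 0.27 (adjusted p = 0.00711, and 0.0505 without replicate c). WRKY39 (AT3G04670) had a ratio of 0.21 (adjusted p = 0.0563), which passed the threshold without replicate a (0.30, adjusted p = 0.0236), and WRKY74 (AT5G28650) one of 0.09 (adjusted p = 0.127).

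Subgroup IIe had the smallest changes: 1 of 5 members rose, 2 fell and the median was −0.09. WRKY22 (AT4G01250) and WRKY29 are both known as targets of the MAP kinase cascade that flagellin activates. WRKY22 had ratios of 0.13, 0.28, 0.63 and 0.50 and rose by 0.38 (adjusted p = 0.0235), a call lost without replicate c (0.0628) or d (0.0624) and with the authors' value table (0.0782). WRKY29 (AT4G23550) had −0.27, −0.16, −0.32 and −0.02 and fell by 0.19 on the log2 scale (adjusted p = 0.0157), a call lost without replicate a (0.0744) or c (0.0982) and with median centring (0.130). The ratio of WRKY22 was 0.40 to 0.95 above that of WRKY29 on every array. WRKY69 (AT3G58710) had −0.23, −0.32, −0.12 and −0.40 and fell by 0.27 (SD 0.12, adjusted p = 0.00518), the only one of the 4 falls that kept its call without each array in turn.

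The other members of subgroup IIe did not pass the test. WRKY27 (AT5G52830), which affects symptom development in bacterial wilt, had a ratio of −0.07 (95% interval −0.25 to 0.10, adjusted p = 0.363). WRKY65 (AT1G29280) had −0.33, 0.20, 0.25 and −0.49, with a fitted ratio of −0.09 (adjusted p = 0.618) that turned to 0.05 without replicate a and to 0.08 without replicate d. Both WRKY65 and WRKY26 of group I were positive on arrays b and c and negative on arrays a and d.

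The 8 comparisons of relatives above (WRKY33 and WRKY25 with WRKY26, WRKY4 with WRKY3, WRKY17 with WRKY11, WRKY75 with WRKY45, WRKY51 with WRKY50, WRKY22 with WRKY29, WRKY70 with WRKY54) were chosen after the values were seen. In each, the first gene had the higher ratio on 4 of 4 arrays, and for WRKY70 over WRKY54 the difference was 0.42 to 1.098. WRKY50, WRKY51 and WRKY75 were well above background on 2, 1 and 1 Ler arrays, so the differences of their ratios do not measure a difference between the genes and are not given. A two-sided exact permutation test that flips the sign of each array's difference gave p = 0.125 for all 8, also after adjustment, the smallest p that 4 arrays can give. These comparisons therefore describe the arrays and could not pass a threshold of 0.05.

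Set side by side, the tested members of the 3 groups kept the same order of medians on every array. The median log2 ratio of group I was 0.23, 0.31, 0.33 and 0.19 on arrays a to d. That of group II was 0.49, 0.56, 0.81 and 0.48, and that of group III was 2.49, 2.45, 2.97 and 3.06. Over the arrays, the lowest median of group III was thus 1.64 above the highest of group II. Group II held all 4 members that passed the filter through ron3 alone, and groups I and III held 0. The filter can thus have moved the medians of group II, which was not tested, and their distance from those of group I is not read as a result. The medians of the fitted ratios were 0.26, 0.62 and 2.59, and with WRKY31 at its bound that of group II was 0.52. As shares of the tested members, 6 of 9 rose in group I, 19 of 28 in group II and 8 of 8 in group III. Falls numbered 2, 2 and 0.

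Group II was itself uneven, with a median of 2.96 in IIa, 0.70 in IIb (0.58 with WRKY31 at its bound), 0.88 in IIc, 0.27 in IId and −0.09 in IIe. Rises of at least 4-fold were found in 10 of the 11 members of IIa and III, and in 4 of the 34 others, namely WRKY25, WRKY33, WRKY50 and WRKY51. This grouping of IIa with III was made after the values were seen and was not tested.

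**Figure D3:**
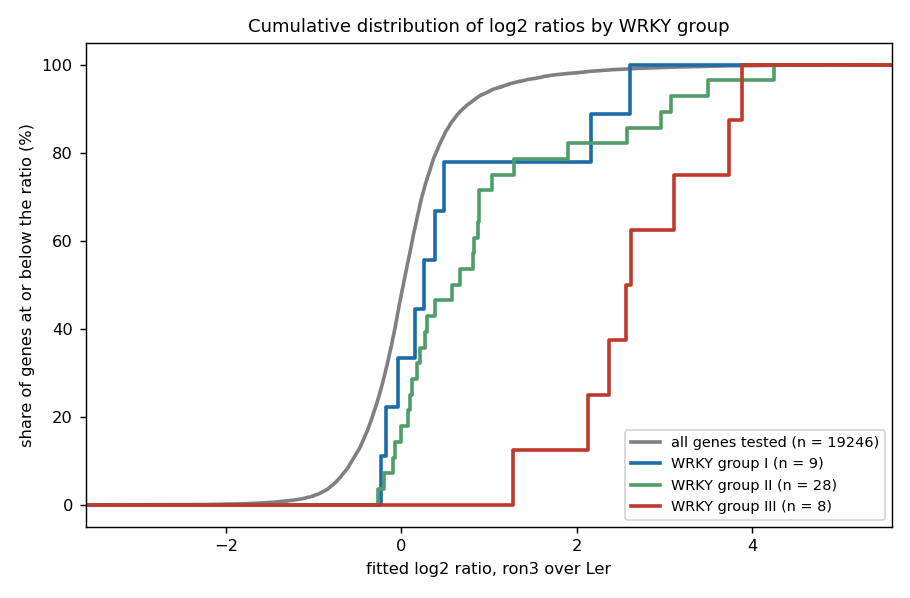
Cumulative share of genes (vertical axis, %) at or below each fitted log2 ratio of ron3 over Ler (horizontal axis), for WRKY groups I (n = 9), II (n = 28) and III (n = 8) and for all 19246 genes tested. The whole curve of group III lies to the right of 1.27, while the curves of groups I and II begin near −0.23 and −0.27.

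The size of the rises varied between arrays in a common order. Among the 18 members that rose at least 2-fold, array b gave the lowest ratio in 13, and arrays c and d gave the highest in 9 each. Both array c and array d exceeded both a and b in 11 of these 18 members (61.1%). Over all 1158 genes with a rise of at least 2-fold and a value on each array, the same order was found in 421 (36.4%). The order crosses the dye orientation, since arrays a and c held ron3 in Cy5. For 23 of the 33 risen members the mean ratio was larger where ron3 carried Cy5, a count that was not taken over all genes. The dye effect passed the threshold in limma for 0 members, and also for 0 of all 19246 genes tested. Its unadjusted p was under 0.05 for 5 members and for 2208 of all genes tested.

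The size of the largest rises also depended on how the signals were processed. The normexp correction used here adds an offset of 50, which draws ratios of dim spots toward 0. The log ratio of the scanner software was computed without that offset, and with its own background and dye normalisation steps. With it, WRKY51 reached 6.71 in place of 4.26, WRKY50 5.42 in place of 3.50 and WRKY75 3.32 in place of 1.90. WRKY55 reached 3.37 in place of 2.13 and WRKY41 2.07 in place of 1.27. Likewise WRKY31 went from 0.58 to 2.08, WRKY48 from 0.88 to 1.92 and WRKY8 from 0.82 to 1.52. In these 8 genes the Ler signal was well above background on 3 or fewer arrays. WRKY40, with its Ler signal well above background on all 4 arrays, went from 3.07 to 4.17 as well. The part of the offset in these shifts was not tested. In all, 12 called members moved by more than 1.5 times, among them the falls of WRKY69 (to −0.47) and WRKY29 (to −0.31) and the small rises of WRKY4 (to 0.09) and WRKY23 (to 0.08). With these log ratios, and likewise with the authors' value table, 29 of the 33 rises kept their call, and WRKY4, WRKY22, WRKY23 and WRKY45 lost it.

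**Figure D4:**
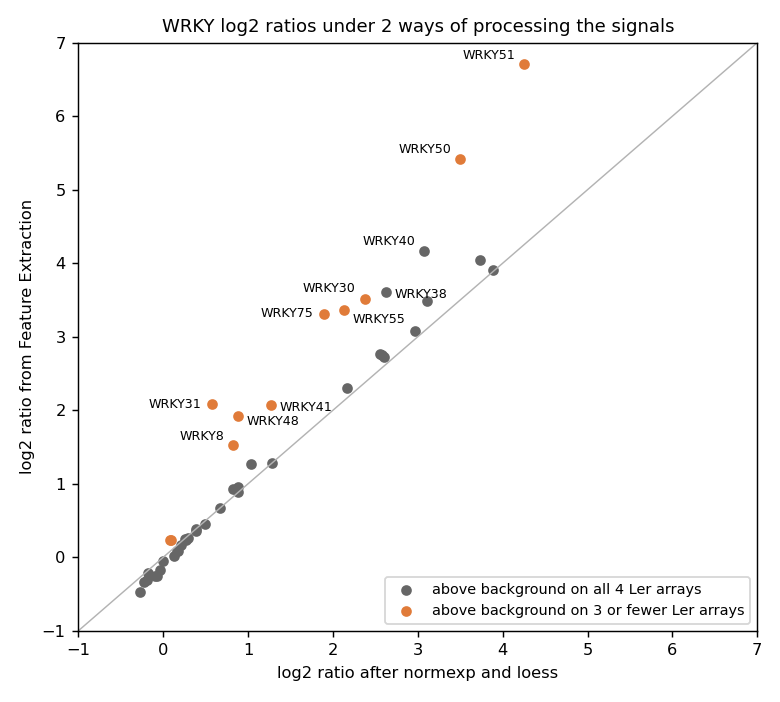
Log2 ratio of each tested WRKY gene with the correction used here (horizontal axis) and from the scanner software (vertical axis), with the line of equality in grey. WRKY51 (4.26 against 6.71) and WRKY50 (3.50 against 5.42), both above background on fewer than 4 Ler arrays (orange), lie far above the line, as does WRKY40 (grey, 3.07 against 4.17), while WRKY70 stays near it.

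Of the 25 WRKY loci outside the 47 that were looked up, 14 were tested, 8 rose, 1 fell (WRKY13, by 0.21) and the median log2 ratio was 0.27, where 37.0% of all genes tested rose and 32.8% fell. Of the 14, 4 passed the filter through ron3 alone. A rise of at least 2-fold was called in 1 of the 14 (7.14%). That share was 40% among the tested listed members and 6.02% among all genes tested, so the large rises hold for the listed loci. WRKY59 gave 3.06, 1.64, 3.21 and 2.41 and had a ratio of 2.58 (SD 0.72, adjusted p = 0.000364), with a Ler signal well above background on 1 array. WRKY62, which acts with WRKY38 against basal defence, rose by 0.85 (adjusted p = 0.00104, with 1 Ler array well above background), and WRKY19 by 0.66 (adjusted p = 0.000631). WRKY58, a negative regulator of systemic resistance, was well above background on 0 Ler arrays and rose at least 1.49-fold (adjusted p = 0.00185).

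The lists of partners and targets are read against the same shares of all genes, 37.0% for rises and 32.8% for falls. These lists were written with earlier results of these data known, so their shares describe the lists and are no test. Of 29 genes for VQ motif proteins, 19 were tested, 11 rose (57.9%) and 1 fell (5.26%), with a median of 0.46. SIB1, whose protein binds WRKY33, gave 3.94, 3.32, 3.76 and 4.58 and rose by 3.90 (SD 0.53, adjusted p = 0.000386). The VQ motif genes AT3G22160 and AT1G78410 rose by 2.18 and 2.15, and CAMBP25, for a calmodulin-binding protein, by 1.52. MKS1, which links MPK4 to WRKY33, was well above background on 0 arrays and was not tested. In the MAP kinase cascades that lie upstream of WRKY proteins, 11 of 13 genes rose (84.6%) and 0 fell, with a median of 0.91. MPK11 rose by 2.84 (SD 0.93, adjusted p = 0.00180), with 1.47 on array b against 3.09 to 3.50 on the others. The kinase kinase gene MKK9 rose by 1.58, MAPKKK9 by 1.57 and MEK1 by 1.44, while MKK3 and MPK6 had ratios of 0.00 and 0.03 that did not pass the test.

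Genes described in other work as WRKY targets had a median log2 ratio of 1.95. Of 24 listed, 19 were tested, 15 rose (78.9%) and 1 fell (5.26%), and 3 of the 19 passed the filter through ron3 alone. The senescence-associated gene SAG13 rose by 5.14 (SD 0.51, adjusted p = 0.000148), and PAD3, the last enzyme of camalexin synthesis, by 4.29 (SD 0.74, adjusted p = 0.000570), with a Ler signal well above background on 1 array. CBP60G, a regulator of salicylic acid synthesis, rose by 4.23 (adjusted p = 0.000224), and PR1, the marker of salicylic acid responses, by 4.10 (SD 0.21, adjusted p = 0.000137). GL2, a trichome regulator described as a target of TTG2, fell by 0.38 (adjusted p = 0.00138). The phosphate transport genes PHO1 and PHT1;1, described as targets of WRKY6 and WRKY45, had ratios of −0.14 and 0.19 that did not pass the test, and ABI5 had −0.11.

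**Figure D5:**
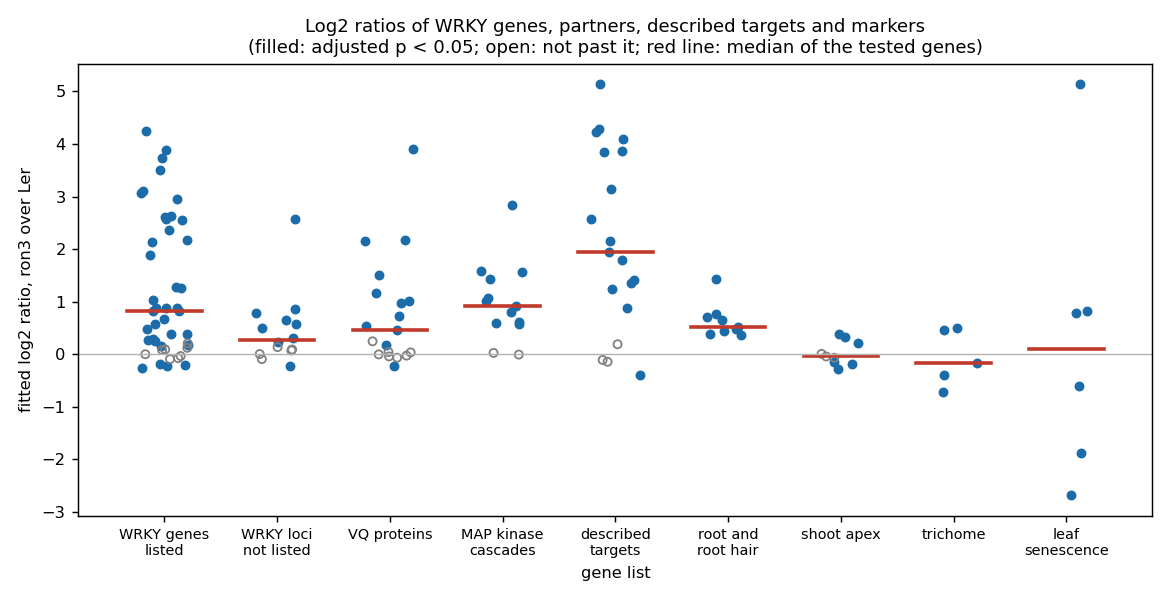
Fitted log2 ratios of ron3 over Ler (vertical axis) for the tested genes of each list (horizontal axis), filled where the limma adjusted p is under 0.05 and open otherwise, with a red line at the list's median. Genes with no Ler array above background are drawn at their fitted ratio, not at their bound. The described targets have the highest median, 1.95, and the 13 MAP kinase cascade genes one of 0.91.

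Markers of tissues that a shoot apex sample can hold were read beside these results. Of 11 shoot apex markers 9 were tested, 3 rose (STM, KNAT1 and KNAT6) and 3 fell (KNAT2, CLV1 and CUC2), 33.3% each way against 37.0% and 32.8% of all genes, with a median of −0.04 and ratios of −0.27 to 0.40. Their summed signals, mostly from CLV1 and AS1, were 22693 to 28231 in ron3 and 24906 to 30543 in Ler. WUS and CLV3, which define the stem cell region, were well above background on 0 arrays. Of 11 root and root hair markers 9 were tested, of which 6 passed the filter through ron3 alone and so had to be higher there. The other 3 were IRT1, CASP1 and SHV2, which rose by 1.43, 0.72 and 0.76, with their lowest ratios, 0.67, 0.31 and 0.21, on array d. The list's summed signals were 764 to 1879 in ron3 and 421 to 509 in Ler. Of these 11, 7 were well above background on 0 Ler arrays, among them EXPA7, EXPA18, RHD6, RHS19 and RHD2, and LRL3 and LRX1 were so in both genotypes.

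Of the 6 trichome markers, 5 were tested, 2 rose and 3 fell, where 37.0% of all genes rose and 32.8% fell. TTG1 and CPC rose (0.47 and 0.51), and MYB0, GL2 and ETC1 fell (−0.71, −0.38 and −0.16). The list's summed signals were 8538 to 10388 in ron3 and 7027 to 8075 in Ler. Most of that sum was TTG1, at 7511 to 9119 in ron3 and 5739 to 6565 in Ler. Leaf senescence markers went both ways, 50% each against the same shares of all genes. Of 6 tested, SAG13, SAG29 and ERD1 rose, while SEN1 fell by 2.68, NAP by 1.88 and NAC6 by 0.59. Their summed signals were 32198 to 36834 in ron3 and 24085 to 28360 in Ler, with ERD1 as the largest part. SAG12, the marker of late senescence, was well above background on 1 array in each genotype. The part of these tissues in the WRKY results was not tested.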

How the data were processed

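The series holds 4 arrays, each with 1 channel for ron3 and 1 for Ler, all on 1 slide. Agilent Feature Extraction 10.1.1.1 measured the spots, per the file headers and the submitters' processing notes. For each spot and its local background the deposited value is a median intensity. Processed signals, deposited as intensity too, are background-subtracted and dye-normalised, per the file headers. The deposited log10 ratio is processed Cy5 over Cy3, also per the file headers. Turned to log2, it differed from the quotient of these signals by up to 0.317 among the probes compared. The authors' deposited value table holds log2 ratios of the processed signals of 33441 probes, turned to ron3 over Ler to within 5e-06. Spot flags, deposited as 0 or 1, have no unit and are classed as other.

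Each array held 39102 spots, 1417 of them controls, and 26236 gene probes with a locus identifier. Median signals were 129.5 to 164 in Cy3 and 148 to 222 in Cy5. Of the gene spots 43 carried an outlier flag, 0 of them on WRKY probes, and 0 were saturated.

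Signals were corrected by normexp (offset 50) in limma 3.58.1 with R 4.3.3, and ratios were normalised by loess within arrays, with controls at weight 0. A probe was tested if at least 2 arrays had it well above background in 1 of the genotypes and at least 3 had it unflagged, and the brightest probe stood for its gene. A linear model with a dye effect per probe (2 residual and 2.45 prior degrees of freedom) was fitted to all 19246 genes. P-values are two-sided and were adjusted over all genes after Benjamini and Hochberg, with a threshold of 0.05. Spreads are the SD of the 4 arrays with any dye effect included, while the p-values rest on the moderated variance left after the dye effect. Signals quoted per genotype are the processed signals, not normalised between arrays. The fit was also run on simulated data in which few genes changed, unlike these data, so it is not used as support. Alternatives changed the dye term, background, normalisation, filter, probe rule, moderation, averaging of arrays, and left out each array.

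The WRKY members and all gene lists were chosen with earlier results of these data known. Within each subgroup, up to 4 members past the threshold with the largest absolute change are given with every array's value, and all 47 are accounted for. From each partner or target list, up to 4 such genes are named, and other genes named were chosen after their values were seen. Group membership, gene roles and the identity of RON3 came from general knowledge. A reference gene table (assembly TAIR10.1) matched all 47 loci and served for names and neighbours only. Reference promoter and protein sequences were not used here.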

Additional observations from a re-analysis of the deposited data

Results flagged for a closer look

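Of 65 results examined for an array far from the other 3, 2 stood apart, both on array c, and chance sets about 1 in 20 apart. WRKY72 had a log2 ratio of 0.19 on array c and 0.04 to 0.05 on the others, and it did not pass the test with or without that array (0.04 without replicate c). WRKY57 had 1.27 on array c and 0.93 to 0.98 on the others, so its rise of 1.03 rests on 4 positive values of which 3 lay close together.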

How the results depend on the processing

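The count of risen WRKY genes was 33 and ran from 25, where only 34 members with every channel above background were tested, to 34. All 33 were positive under each of the 15 alternatives in which they were tested, and 25 kept their call in all of these. The calls lost were those of WRKY23, WRKY4, WRKY22, WRKY45, WRKY31, WRKY7, WRKY20 and WRKY41, and WRKY39 and WRKY28 gained one under at least 1 alternative. The count of falls, 4, was 2 with median centring in place of loess, and 1 to 4 with 1 array left out: it was 1 without replicate a and 1 without replicate c. Leaving out 1 array gave 26 to 33 rises. Over all genes, rises ran from 5237 to 7212 and falls from 4686 to 7393.

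The median of group II, 0.62, was 0.78 both with the log ratio of the scanner software and with the authors' value table, and 0.34 with every channel above background. That of group III, 2.59, was 3.50, 3.50 and 3.11 under the same 3 settings. With 1 array left out, the medians were 0.22 to 0.30 in group I, 0.50 to 0.76 in group II and 2.46 to 2.79 in group III. The order of the 3 groups was the same throughout, and that of groups I and II is not read as a result. The median of all genes moved between −0.04 and 0.06.

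Only members that did not pass the test changed sign. WRKY11 was −0.0085 without background correction, −0.051 with both the scanner's log ratio and the authors' table, −0.055 without replicate c and −0.097 without replicate d. Over the arrays left out in turn, WRKY11 ran from −0.097 to 0.099. WRKY26 was 0.21 without replicate a and 0.065 without replicate d, in a range of −0.28 to 0.21, and WRKY65 was 0.052 and 0.081 without these, in a range of −0.27 to 0.081. The causes were not tested.

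The ratio within an array already pairs ron3 with Ler. With arrays averaged as dye swaps, a with d and b with c, 31 of the 33 rises kept their call, and WRKY4 (adjusted p = 0.0536) and WRKY23 (0.0554) lost it. With a and b, and c and d, all 33 kept it and WRKY39 (0.0470) gained one. Signal over background limits the ratios of the 10 members that were well above background on all 4 ron3 arrays but fewer Ler arrays, and 4 arrays leave 2 residual degrees of freedom.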
